A study of Mus musculus with 6 samples.

Results

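The 10 myeloid C-type lectin transcripts described here were Clec4a1, Clec4a2, Clec4a3, Clec4b1, Clec4d, Clec4e, Clec4n, Clec5a, Clec7a and Clec12a, taken by gene symbol from 57010 genes in the count table. All 10 were found and all 10 passed the filter on low counts. RNA came from CD45+ CD90.2- cells, leukocytes meant to be free of T cells, sorted from the hearts of Ova DTG mice, which express ovalbumin in the heart alone. Every mouse, in both groups, had received OTI cells, CD8 T cells with a receptor for an ovalbumin peptide. The labels' protocol gives 100000 naive OTI cells by the retro-orbital route, unless another number was indicated. One group of 3 libraries is labelled ICI, for immune checkpoint inhibitors: 200 µg of the CTLA-4 antibody 9D9 and 200 µg of a PD-1 antibody, both into the peritoneum. The other 3 libraries are labelled isotype control. The labels give no age, no time after transfer and no control without OTI cells, and the titles of both groups name myocarditis, so every direction below rests on the ICI and isotype labels. The comparison asks how the lectin transcripts of heart leukocytes differ when the antibodies are added to the T cell transfer.

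C-type lectin receptors are surface proteins of macrophages, monocytes, neutrophils and dendritic cells that bind sugars, glycolipids and products of dying cells. Activating members signal through the kinase Syk and the adaptor Card9 towards NF-kB. Clec7a (Dectin-1) carries a partial activation motif of its own, whereas Clec4n (Dectin-2), Clec4e (Mincle), Clec4d (MCL) and Clec4b1 (DCAR) use the Fc receptor gamma chain Fcer1g, and Clec5a (MDL-1) uses DAP12, the product of Tyrobp. Clec4a2 (DCIR) and Clec12a (MICL) carry an inhibitory motif that recruits phosphatases such as SHP-1, while Clec4a1 and Clec4a3 are relatives of DCIR without it.

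Of the 10 lectins, 7 were lower and 1 was higher in the libraries labelled ICI, and 2 did not pass the test. The background was high: 68.9% of all 14575 genes tested were called, 33.9% lower and 35% higher. The median log2 fold change of the 10 was -0.67, against 0.03 over all genes tested. For 7 of the 10 the CPM of the groups did not overlap (73.5% of all genes tested), 5 of them lower with the ICI label (28.2%) and 2 higher (45.3%). Against a threshold of a 1.5-fold change, 3 were lower (16.5% of all genes tested; 37.9% passed in either direction) and 1 was higher. Levels are CPM, counts scaled to a common library total. Fold changes are edgeR estimates with TMM scaling, so they can differ from the ratio of 2 CPM means. CPM leave out the TMM factors (1.051 to 1.105 with the ICI label, 0.9212 to 0.9525 with the isotype label). Groups that overlap in CPM therefore need not overlap after TMM scaling. The split was 2 higher and 5 lower with upper-quartile factors or library totals alone, and 3 higher and 4 lower with a trend on transcript length removed. Upper-quartile factors moved the median over all genes to 0.21 and library totals alone moved it to 0.23, and the calls over all genes went from 5102 higher and 4938 lower to 6155 and 3849, and to 6254 and 3728.

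**Figure D1:**
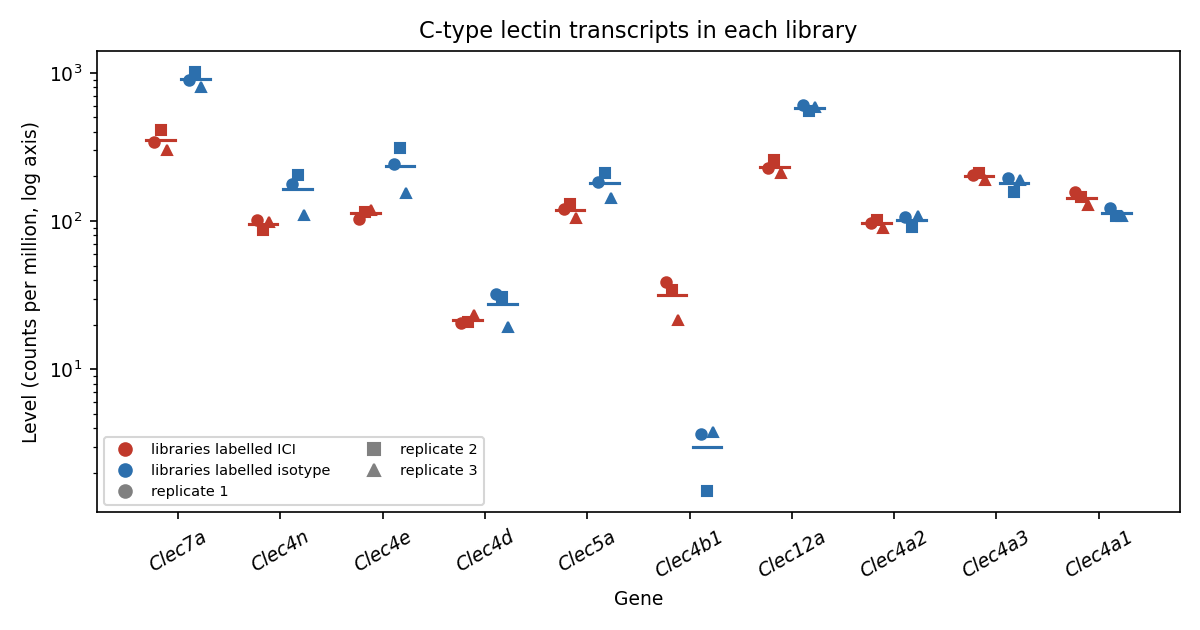
Level of each lectin transcript in each library (CPM, log axis), with colours for the ICI and isotype labels and symbols for replicates 1 to 3. Clec7a and Clec12a are lower in all 3 libraries labelled ICI, whereas Clec4b1 lies between 21.6 and 39.0 CPM there and between 1.501 and 3.77 CPM in those labelled isotype.

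Total counts ran from 21528274 to 30736316 per library. Xist outnumbered Y-linked counts in replicate 3 labelled ICI (2786 against 6) and in replicate 3 labelled isotype (1844 against 130), whereas the other 4 libraries held 3620 to 5821 Y-linked counts, so each group mixed libraries with transcripts of different sex. The leukocyte gene Ptprc (CD45) stood at 1300.4 ± 107 CPM and 1012 ± 58.8 CPM (SD, n = 3 each), and Thy1 (CD90) at 0.0596 and 0.0248 CPM. With TMM scaling Ptprc was not called (log2 fold change 0.16, adjusted p = 0.1638). Resident macrophage markers were higher for 11 of 11 genes, with summed levels of 9727 to 11356 CPM in the libraries labelled ICI against 259 to 331 CPM, led by F13a1, Mrc1 and Cd163. Classical monocyte markers were lower for 5 of 7, with sums of 759 to 1030.0 CPM against 2325 to 3092 CPM, led by Ly6c2, Ccr2 and Plac8. The general macrophage list had 4 of 7 genes higher and 2 lower (7228 to 8759 CPM against 4755 to 5047 CPM), and the patrolling monocyte list 6 of 7 higher (1131 to 1350.2 CPM against 615 to 679 CPM). Neutrophil markers were higher for 6 of 11 and lower for 1 (648 to 743 CPM against 456 to 555 CPM), with S100a9 1.62-fold higher and Csf3r and S100a8 not called (both called lower without isotype replicate 3, adjusted p = 0.01981 and 0.02385; with a length trend removed, Csf3r was called lower, 0.04385, and S100a8 higher, 0.006114, and the rise of S100a9 was 2.71-fold). Dendritic cell markers were higher for 7 of 9 and lower for 2 (383 to 554 CPM against 85.8 to 142 CPM). Sums were also larger with the ICI label for B cells (196 to 671 CPM against 3.89 to 8.72 CPM, 5 of 5 higher), natural killer cells (67.0 to 103 CPM against 25.9 to 35 CPM, 5 of 5), stroma (77.3 to 185 CPM against 26.7 to 35.9 CPM, 5 of 7), mast cells and eosinophils (37.3 to 95.6 CPM against 16.9 to 31.3 CPM, 4 of 6; Epx was at 0 in the isotype group), cardiomyocytes (21.5 to 28.2 CPM against 3.16 to 9.01 CPM, 4 of 4) and T cells (11.1 to 21.5 CPM against 1.14 to 3.25 CPM, 2 of 3). The T cell sum was led by Cd4, at a mean of 14.3 CPM with the ICI label and 0.621 CPM with the isotype label. Cd3g was at 0.92 and 0.256 CPM (called higher). Cd3e was at 0.504 and 0.363 CPM (not called, adjusted p = 0.7171). Among all genes tested, 35% were called higher and 33.9% lower. The part of these cell types in the lectin differences was not tested. In these bulk libraries, fewer cells of a type and less RNA per cell cannot be told apart.

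Clec7a (ENSMUSG00000079293), the receptor for fungal beta-glucan, was the most abundant activating lectin per kilobase in both groups. Its level was 339, 415 and 299.8 CPM in the libraries labelled ICI and 901, 1018 and 806 CPM with the isotype label. Every isotype value lay above every ICI value, with means of 351 ± 58.4 and 908 ± 106 CPM (SD, n = 3 each). The fitted level was 2.97-fold lower with the ICI label (log2 fold change -1.57, SE 0.15, adjusted p = 1.543e-05). Across 19 alternative settings the log2 fold change stayed between -1.71 and -1.37 and the call held in each.

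Clec12a (ENSMUSG00000053063), whose product binds uric acid crystals and restrains myeloid cell activation, changed by a similar size although it carries the opposite motif. It stood at 229.8, 259 and 211 CPM in the libraries labelled ICI and at 607, 549.9 and 588 CPM with the isotype label. The groups were far apart relative to their spread, at 233 ± 24.4 and 582 ± 29.2 CPM (SD, n = 3 each). The fitted fall was 2.86-fold (log2 fold change -1.52, SE 0.10, adjusted p = 1.335e-06), and the call held in each of the 19 alternatives. The ratio of Clec7a to Clec12a was 1.48, 1.60 and 1.42 with the ICI label and 1.48, 1.85 and 1.37 with the isotype label, so the ratios overlapped.

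On the mouse genome, Clec12a and Clec7a stand at the ends of a short run of lectin genes on chromosome 6, with Clec12b, Clec1b, Clec9a and Clec1a between them. A further run on that chromosome holds, in order, Clec4a1, Clec4a3, Clec4a4, Clec4b1, Clec4a2, Clec4b2, Clec4n, Clec4d and Clec4e, and Clec5a lies elsewhere on it. Promoter windows of 300 bases, 250 before to 50 after the annotated start, were in the RefSeq table (build GRCm38.p6, older than the build of the counts) for 9 of the 10 lectins; Clec4n had no entry. The windows of the 2 lectins that fell most, of the pair Clec4d and Clec4e and of Clec4b1 are printed 5′ to 3′ on the gene's strand, because these genes carry the contrast in direction. Capitals mark each match to GAGGAA or its reverse complement, a core of sites for PU.1, the myeloid transcription factor encoded by Spi1. The windows are Clec7a at chr6:129472730-129473029 (minus strand), Clec12a at chr6:129349994-129350293 (plus), Clec4e at chr6:123289822-123290121 (minus), Clec4d at chr6:123261857-123262156 (plus) and Clec4b1 at chr6:123049712-123050011 (plus).
Clec7a: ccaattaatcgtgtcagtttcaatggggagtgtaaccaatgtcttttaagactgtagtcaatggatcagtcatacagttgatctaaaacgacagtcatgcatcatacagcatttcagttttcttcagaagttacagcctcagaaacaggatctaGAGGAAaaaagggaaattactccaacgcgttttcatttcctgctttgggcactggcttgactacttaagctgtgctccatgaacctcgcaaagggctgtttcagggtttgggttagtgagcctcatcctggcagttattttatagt
Clec12a: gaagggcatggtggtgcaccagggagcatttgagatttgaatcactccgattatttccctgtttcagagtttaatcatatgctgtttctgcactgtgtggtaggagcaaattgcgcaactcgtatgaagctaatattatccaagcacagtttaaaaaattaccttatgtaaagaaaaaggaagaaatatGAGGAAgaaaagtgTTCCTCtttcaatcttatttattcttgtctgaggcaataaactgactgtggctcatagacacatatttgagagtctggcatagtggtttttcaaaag
Clec4e: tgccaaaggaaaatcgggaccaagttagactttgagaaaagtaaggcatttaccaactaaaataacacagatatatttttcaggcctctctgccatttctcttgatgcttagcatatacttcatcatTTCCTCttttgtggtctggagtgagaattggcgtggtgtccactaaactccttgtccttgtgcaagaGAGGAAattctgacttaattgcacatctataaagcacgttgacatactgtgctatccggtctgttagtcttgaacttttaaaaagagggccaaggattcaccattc
Clec4d: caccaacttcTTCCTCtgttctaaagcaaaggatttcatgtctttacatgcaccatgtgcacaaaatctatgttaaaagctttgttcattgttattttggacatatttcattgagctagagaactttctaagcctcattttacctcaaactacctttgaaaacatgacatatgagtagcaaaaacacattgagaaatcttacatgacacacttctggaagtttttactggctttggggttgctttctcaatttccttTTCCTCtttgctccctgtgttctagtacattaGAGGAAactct
Clec4b1: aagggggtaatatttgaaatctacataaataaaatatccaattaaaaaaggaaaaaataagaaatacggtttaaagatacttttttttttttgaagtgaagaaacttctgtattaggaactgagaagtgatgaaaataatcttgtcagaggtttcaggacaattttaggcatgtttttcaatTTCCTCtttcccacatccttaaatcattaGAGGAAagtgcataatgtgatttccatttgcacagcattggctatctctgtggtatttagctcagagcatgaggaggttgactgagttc

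The PU.1 core was present in 7 of the 9 lectin windows (all but Clec4a2 and Clec4a3) and in 28.31% of 27025 promoter windows of the same length. In these 5 it lay at -96 for Clec7a, at -61 and -47 for Clec12a, at -123 and -56 for Clec4e, at -240, 7 and 39 for Clec4d and at -68 and -39 for Clec4b1, counted in bases from the annotated start. Clec4b1, which rose, and the other 4 printed, which fell, thus shared it. Clec5a, which fell, and Clec4a1, which was not called, also held it, whereas Clec4a2, which fell, did not. Of the other motifs searched on both strands, TTGCNNAA (C/EBP) was in 2 of 9 windows, Clec4e and Clec12a (10.75% of all), TGANTCA (AP-1) in 2, Clec4a2 and Clec12a (7.933%), and GAAA, any 2 bases and GAAA (the interferon-stimulated response element, ISRE) in 2, Clec4b1 and Clec4d (3.489%), where the match overlapped a PU.1 core. GGGA, any base and TTTCC (NF-kB) was in 0 of 9 (0.3848% of all). A match describes letters in a window and not a bound site.

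Clec4e (ENSMUSG00000030142), the receptor for mycobacterial cord factor and for the nuclear protein Sap130 of dying cells, was lower with the ICI label. Its level was 104, 116 and 119 CPM in those libraries and 243, 313 and 154 CPM in the libraries labelled isotype, where replicate 3 lay nearest to the ICI values. The groups did not overlap, at 113 ± 7.98 and 237 ± 79.2 CPM (SD, n = 3 each). The fitted fall was 2.42-fold (log2 fold change -1.27, SE 0.26, adjusted p = 0.00476) and 2.90-fold without isotype replicate 3 (adjusted p = 6.561e-06).

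Clec4n (ENSMUSG00000023349), the receptor for fungal mannans, was lower with the ICI label as well. It stood at 102, 87.7 and 98.9 CPM with the ICI label and at 179, 205 and 109.6 CPM with the isotype label. Isotype replicate 3 was above the highest ICI library by a small margin, and the means were 96.2 ± 7.495 and 165 ± 49.4 CPM (SD, n = 3 each). The fitted fall was 1.98-fold (log2 fold change -0.98, SE 0.24, adjusted p = 0.008966) and 2.36-fold without isotype replicate 3 (1.124e-05). The call was lost against a 1.5-fold threshold (adjusted p = 0.06436) and with a length trend removed (0.05882).

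Clec4d (ENSMUSG00000030144), the partner with which Clec4e pairs at the cell surface, was the least abundant of the 10 per kilobase with the ICI label and stood above Clec4b1 alone with the isotype label. Its levels overlapped: 20.5, 21.0 and 23.2 CPM in the libraries labelled ICI and 32.1, 30.8 and 19.3 CPM with the isotype label. Isotype replicate 3 was the lowest of all 6. The fitted fall was 1.47-fold (log2 fold change -0.55, SE 0.19, adjusted p = 0.03028) and passed the test, but the call was lost in 10 of 19 alternatives, among them each fit without one ICI library (adjusted p = 0.08718, 0.08916 and 0.05532 without replicates 1, 2 and 3) and without isotype replicate 1 or 2 (0.09248 and 0.09063). Without isotype replicate 3 it was -0.79 (adjusted p = 0.0001497).

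The ratio of Clec4e to Clec4d, in CPM, was 5.07, 5.53 and 5.13 in the libraries labelled ICI and 7.56, 10.2 and 8.01 with the isotype label. The pair therefore did not keep one proportion: Clec4e took the larger share in all 3 isotype libraries, including replicate 3, in which both genes were low. Clec4n to Clec4d gave 4.97, 4.19 and 4.26 against 5.56, 6.67 and 5.68, again without overlap.

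Clec5a (ENSMUSG00000029915), which pairs with DAP12 and is known as a sensor of dengue virus, was lower with the ICI label. It stood at 120.0, 131 and 105 CPM there and at 184, 210.4 and 143 CPM with the isotype label. No library overlapped, and the means were 119 ± 12.96 and 179 ± 33.8 CPM (SD, n = 3 each). The fitted fall was 1.74-fold (log2 fold change -0.80, SE 0.16, adjusted p = 0.002219), and the call was lost against a 1.5-fold threshold (adjusted p = 0.08647).

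Clec4b1 (ENSMUSG00000030147), an activating receptor that recognises mycobacterial phosphatidylinositol mannosides, was the lone lectin of the 10 that rose. Its counts were 889, 815 and 465 in the libraries labelled ICI and 108, 37 and 116 with the isotype label, which is 39.0, 34.4 and 21.6 CPM against 3.66, 1.501 and 3.77 CPM. All 3 ICI values lay above all 3 isotype values. The means were 31.7 ± 9.01 and 2.98 ± 1.28 CPM (SD, n = 3 each), and the fitted rise was 9.15-fold (log2 fold change 3.19, SE 0.37, adjusted p = 0.0003116). It was 13.9-fold with the length trend removed, and the call held in each of the 19 alternatives. Of its transcript sequence, 20.6% of 31-base words also occur in other genes and 19.8% in Clec4a2, so reads could have been shared between these paralogs. Clec4a2 itself stayed between 90.5 and 107 CPM in all 6 libraries, and the sharing of reads was not tested.

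**Figure D2:**
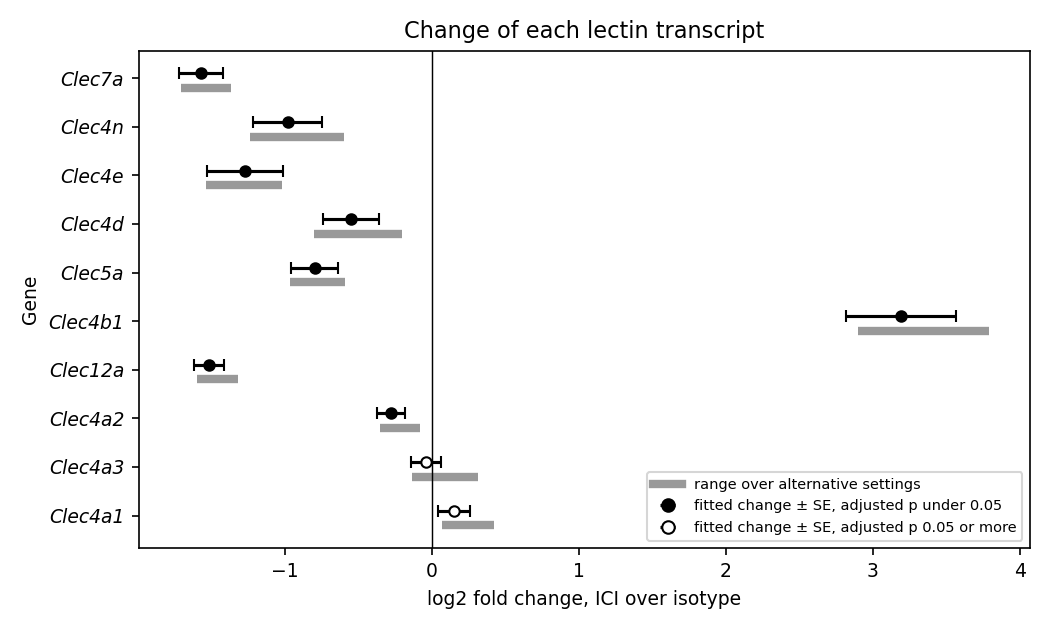
Fitted log2 fold change of each lectin (horizontal axis, ICI over isotype; points with SE, filled where the adjusted p was under 0.05), with grey bars for the range over the alternative settings. Clec4b1 stands alone at 3.19, Clec7a and Clec12a lie near -1.5, and the bar of Clec4a3 crosses 0.

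Clec4a2 (ENSMUSG00000030148), the DCIR gene with the inhibitory motif, differed little. Its level was 97.4, 101 and 90.5 CPM in the libraries labelled ICI and 107, 90.8 and 107 CPM in those labelled isotype, with overlap in CPM. The fitted fall of 1.21-fold (log2 fold change -0.28, SE 0.10, adjusted p = 0.02455) passed the test, and the call was lost in 8 of 19 alternatives, including scaling by the upper quartile (adjusted p = 0.3837) or by library totals (0.4699), and the fits without ICI replicate 3 (0.1097) or isotype replicate 1 (0.08102).

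Clec4a3 (ENSMUSG00000043832), a relative of DCIR, gave 204, 211 and 188 CPM against 194, 156 and 190.1 CPM. The groups overlapped and the log2 fold change of -0.04 (SE 0.10, adjusted p = 0.7373) missed the threshold. Its sign changed in 7 of 19 alternatives, where it ran up to 0.31 with a length trend removed (adjusted p = 0.02158).

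Clec4a1 (ENSMUSG00000049037) gave 158, 146 and 128 CPM with the ICI label and 123, 107 and 107 CPM with the isotype label. The 3 ICI values were the higher ones in CPM, but with TMM scaling the log2 fold change was 0.15 (SE 0.11, adjusted p = 0.2366) and not called. It was called higher when scaled by the upper quartile (adjusted p = 0.01866) or by library totals (0.009732) and with a length trend removed (0.006747).

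Levels of different genes can be set side by side per kilobase of transcript. On that scale Clec4a3 (155 ± 9.19 CPM per kilobase) and Clec7a (154 ± 25.7) led in the libraries labelled ICI and did not differ beyond their spread, followed by Clec12a (93.3 ± 9.74) and Clec4a1 (92.3 ± 9.48), which differed by less than their spread. Clec4n (78.3), Clec4e (44.9), Clec4b1 (42.3), Clec4a2 (38.9), Clec5a (31.7) and Clec4d (16.3) followed, of which Clec4b1, at 28.9 to 52.1, overlapped Clec4e, Clec4a2 and Clec5a, whereas Clec4e and Clec4a2 did not overlap each other. In the libraries labelled isotype the order was Clec7a (399 ± 46.7), Clec12a (233 ± 11.7), Clec4a3 (139 ± 16.0) and Clec4n (134 ± 40.2), the last 2 within their spread, then Clec4e (94.0), Clec4a1 (72.3), Clec5a (47.9), Clec4a2 (41.0), Clec4d (20.7) and Clec4b1 (3.98). In these libraries Clec4e, at 61.3 to 124, overlapped Clec4a3, Clec4n and Clec4a1, and Clec5a, at 38.3 to 56.2, overlapped Clec4a2. Clec4b1 ranked 10 of 10 there and 7 of 10 with the ICI label.

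As a share of the summed level per kilobase of the 10 lectins, Clec7a held 19.3% to 22.9% in the libraries labelled ICI and 32.2% to 35.3% in those labelled isotype. Clec12a held 12.1% to 13.01% against 17.4% to 22.3%. The share of Clec4a3 was 20.4% to 21.2% against 9.50% to 13.9%, and that of Clec4a1 11.7% to 13.3% against 5.45% to 6.53%. Clec4b1 held 4.24% to 6.84% against 0.159% to 0.478%. Clec4a2 held 5.13% to 5.35% against 2.89% to 4.10%, and Clec4d 1.99% to 2.57% against 1.38% to 1.97%, the latter by a small margin. The ICI mixture thus held proportionally more of Clec4a1, Clec4a2, Clec4a3, Clec4b1 and Clec4d, within a summed CPM of 1286 to 1523 against 2230 to 2683. Shares sum to a whole, so they are not independent of one another.

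**Figure D3:**
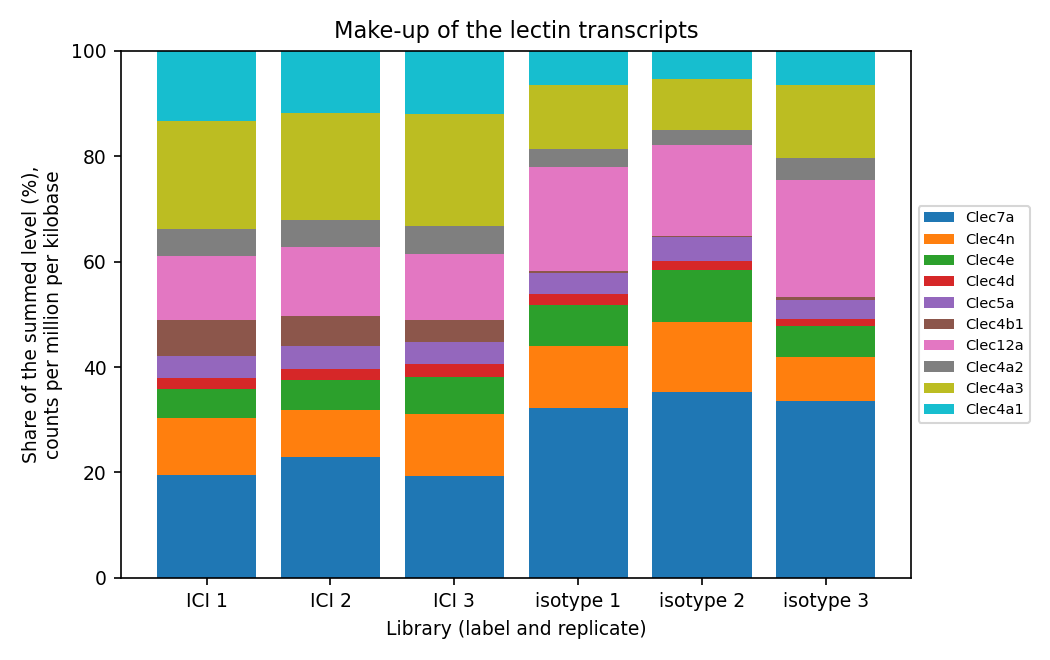
Share of each lectin in the summed level of the 10 (vertical axis, percent of CPM per kilobase) in each of the 6 libraries, 1 stacked bar a library. The Clec7a share lies between 19.3% and 22.9% with the ICI label and between 32.2% and 35.3% with the isotype label.

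Summed over the 6 activating lectins and divided by the sum of the inhibitory pair, Clec4a2 and Clec12a, the ratio in CPM was 2.21, 2.23 and 2.21 in the libraries labelled ICI and 2.16, 2.78 and 1.78 with the isotype label. The means were 2.22 ± 0.00908 and 2.24 ± 0.504 (SD, n = 3 each), so the isotype values lay on both sides of the ICI values. Without Clec7a the ratio was 1.18, 1.08 and 1.22 (mean 1.16) against 0.898, 1.19 and 0.619 (mean 0.901), again with overlap.

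The spread inside the isotype group had a pattern of its own. Isotype replicate 3 was at 65.3% of its group mean for Clec4e, 66.6% for Clec4n, 70.4% for Clec4d, 79.9% for Clec5a and 88.7% for Clec7a, the lowest of its group for each. It was at 101% for Clec12a, 105% for Clec4a2, 106% for Clec4a3 and 127% for Clec4b1. Isotype replicate 2 was instead the lowest for Clec4b1 (50.4%), Clec4a3 (86.7%), Clec4a2 (89.1%) and Clec12a (94.5%). After the group means were taken out of TMM-scaled log2 CPM, Pearson correlations over the 6 libraries were computed. They were 0.91 to 0.93 among Clec4d, Clec4e and Clec4n, and 0.95 to 0.99 among Clec4a2, Clec4a3 and Clec4b1. High values were not limited to these sets: Clec5a with Clec7a gave 0.909, Clec5a with Clec4e 0.831 and Clec12a with Clec4a2 0.841. These are given as a description, since the points are few and 19.8% of the 31-base words of Clec4b1 also occur in Clec4a2. The summed classical monocyte markers were also lowest of the isotype group in replicate 3 (3006, 3092 and 2325 CPM in replicates 1, 2 and 3), as were the neutrophil markers (554, 555 and 456 CPM), and this library also differed in sex transcripts. The part of these in the spread was not tested. With a term for sex, the 7 lectins called lower and Clec4b1 called higher had adjusted p-values from 1.374e-06 (Clec12a) to 0.02621 (Clec4a2).

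**Figure D4:**
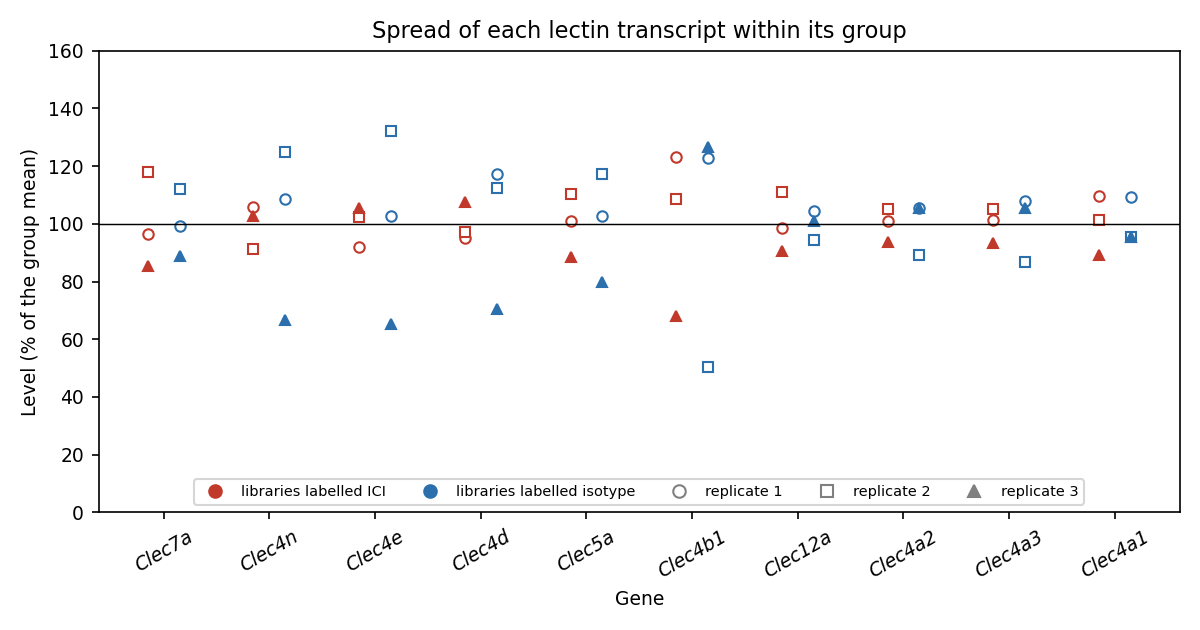
Level of each lectin in each library as a percent of the mean of its own group (vertical axis), with colours for the labels and symbols for replicates. Replicate 3 of the isotype group lies at 65.3% to 70.4% for Clec4e, Clec4n and Clec4d and at 127% for Clec4b1.

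Neighbouring lectin genes were scarcer. The 7 listed include Olr1, the oxidised low-density lipoprotein receptor, which is not in the runs given above. Of the 7, 4 could be tested, of which 2 were lower (33.9% over all genes tested) and 2 were not called. Clec9a, the dead-cell receptor of cross-presenting dendritic cells, was 7.15, 8.94 and 6.87 CPM against 17.3, 12.0 and 22.4 CPM, a 2.59-fold fall (adjusted p = 0.0005001). It fell while 7 of 9 genes on the dendritic cell list, which also holds it, rose. Olr1 was 5.62, 7.17 and 13.1 CPM against 20.3, 21.8 and 19.7 CPM, a 2.77-fold fall (adjusted p = 0.001382). Clec1a was at 2.34 and 1.31 CPM (adjusted p = 0.0567, but 0.02783 and called higher without isotype replicate 1) and Clec1b at 0.576 and 0.831 CPM (0.1072), and Clec4a4, Clec4b2 and Clec12b averaged at most 0.369 CPM in either group.

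The signalling adaptors were lower in 3 of 3 cases, beside 33.9% of all genes tested. Fcer1g, the gamma chain used by Clec4e, Clec4d, Clec4n and Clec4b1, was 652, 624 and 558 CPM in the libraries labelled ICI and 1153, 1044 and 1072 CPM in those labelled isotype, a 2.05-fold fall (log2 fold change -1.03, SE 0.10, adjusted p = 1.335e-05). Tyrobp, which encodes DAP12, was 649, 573 and 611 CPM against 968, 828 and 868 CPM, a 1.67-fold fall (adjusted p = 9.39e-05). Hcst, which encodes DAP10, was at 6.38 ± 0.729 and 10.1 ± 1.42 CPM (SD, n = 3 each; 1.82-fold lower, adjusted p = 0.0006763). With the length trend removed, the fall of Fcer1g was 1.32-fold (adjusted p = 0.005863), and Tyrobp (adjusted p = 0.7752) and Hcst (0.7195) lost the call. Clec4b1 thus rose in libraries in which its adaptor transcript was lower.

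Of 30 genes of the Syk and Card9 pathway, 11 rose, 11 fell and 8 missed the threshold. Over all genes tested, 35% rose and 33.9% fell. The median log2 fold change of the pathway genes was -0.06. The even split depended on the scaling: it was 14 higher and 10 lower with upper-quartile factors and 14 and 9 with library totals alone. Among those with the smallest p, Vav1, a signalling protein of blood cells that acts downstream of Syk, fell 1.77-fold (233 ± 9.46 against 358 ± 18.5 CPM, adjusted p = 1.992e-05). Rel, an NF-kB subunit, rose 2.76-fold (540 ± 57.2 against 169.8 ± 27.8 CPM, adjusted p = 3.492e-06), and Pik3cg, a phosphoinositide kinase subunit, rose 1.98-fold (adjusted p = 1.658e-05). The 2 genes that name the pathway, chosen after their values were seen, moved apart. Syk was at 541, 483 and 635 CPM with the ICI label and 316, 306 and 328 CPM with the isotype label, a rise of 1.51-fold (adjusted p = 0.0003828). Card9 was 8.51, 7.80 and 9.66 CPM against 18.6, 16.6 and 11.2 CPM, a fall of 2.06-fold (adjusted p = 0.001016), and isotype replicate 3 was again nearest to the ICI values.

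**Figure D5:**
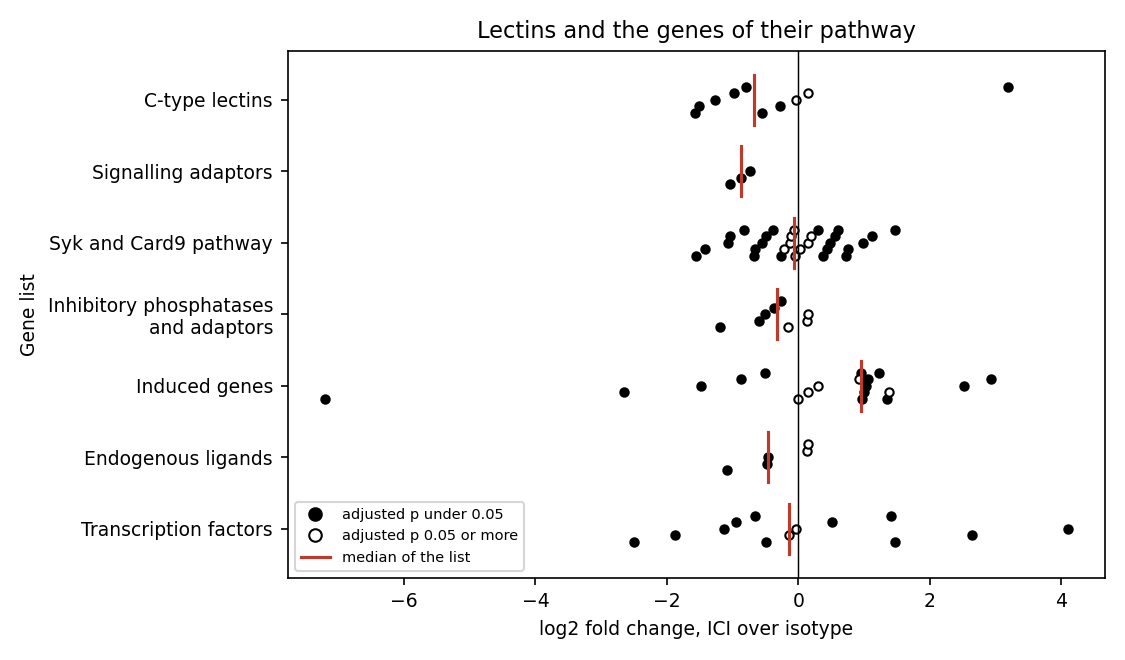
Log2 fold change (horizontal axis, ICI over isotype) of each tested gene in the lectin list and in the lists of its pathway, 1 row a list, filled where the adjusted p was under 0.05, with a red line at each list's median. The 3 adaptors lie below 0, whereas the pathway genes spread on both sides with a median of -0.06.

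The inhibitory signalling list held 8 genes, not all of them phosphatases: Ptpn6, Ptpn11, Inpp5d, Ptpn22, Dok1, Dok2, Cblb and Cbl. Of the 8, 5 fell, 0 rose and 3 (Ptpn22, Cblb and Cbl) missed the threshold, whereas 33.9% of all genes tested fell and 35% rose. The median of the 8 was -0.32. At an unadjusted p under 0.05 in edgeR, and with DESeq2 or limma-voom, the count of those that rose was also 0; upper-quartile factors gave 2 higher and 3 lower, and library totals alone 1 and 3. Ptpn6, the SHP-1 phosphatase recruited by Clec4a2 and Clec12a, fell 2.27-fold, from 978, 954 and 896 CPM in the isotype libraries to 497, 471 and 463 CPM (adjusted p = 2.594e-06). Ptpn11, the SHP-2 phosphatase, fell 1.51-fold (adjusted p = 0.003209), and the docking protein gene Dok1 fell 1.42-fold (0.0006015). Inpp5d, the lipid phosphatase SHIP-1, overlapped between the groups in CPM, before TMM scaling (452 ± 15.1 and 473 ± 46.6 CPM). With TMM scaling its log2 fold change was -0.27 (adjusted p = 0.02163). Its call was lost without ICI replicate 2 (0.0702), ICI replicate 3 (0.06242), isotype replicate 2 (0.05644) or isotype replicate 3 (0.05389). The count of those that fell was 3 without ICI replicate 2, ICI replicate 3 or isotype replicate 2.

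Genes that Syk and Card9 signalling is known to induce rose in 9 and fell in 5 of 19 cases, and their median was 0.95. The shares over all genes tested were 35% and 33.9%. Csf2 had 0 counts in all 6 libraries. Egr1, an early-response transcription factor, rose 7.63-fold (3288 ± 406 against 374 ± 49.6 CPM, adjusted p = 1.786e-07). Cxcl2, a neutrophil chemokine, rose 2.54-fold (947 ± 90.4 against 324 ± 31.2 CPM, adjusted p = 4.2e-06), and Tnf rose 2.00-fold (279 ± 16.3 against 121 ± 11.9 CPM, adjusted p = 1.499e-05). Ptgs2, which encodes cyclooxygenase-2, went the other way and fell 6.31-fold (141 ± 30.4 against 777 ± 99.7 CPM, adjusted p = 1.199e-05). The largest change of the list was that of Nos2, the inducible nitric oxide synthase, chosen after its value was seen, which fell 148-fold (1.89, 4.17 and 4.83 CPM against 441, 649 and 298 CPM, adjusted p = 0.0001156). The split was 12 higher and 3 lower with upper-quartile factors or library totals alone, and the count of those that fell was also 3 without ICI replicate 2 or isotype replicate 1.

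Of 5 genes whose products are known as endogenous ligands, 3 fell (33.9% over all genes tested) and 2 were not called. Vim, vimentin, a ligand described for Clec7a, was 608, 667 and 603 CPM against 1167, 1115 and 1185 CPM, a 2.12-fold fall (adjusted p = 3.698e-06). Anxa5 fell 1.38-fold (664 ± 26.3 against 799 ± 11.5 CPM, adjusted p = 0.0007748) and Lgals9, galectin-9, also 1.38-fold (adjusted p = 0.001651); Lgals9 lost the call with the length trend removed (0.07509), which left 2 ligands lower. Sap130, the ligand of Clec4e, was at 32.0 ± 3.34 and 25.2 ± 2.46 CPM (log2 fold change 0.14, adjusted p = 0.2769) and Anxa1 at 263 ± 17.4 and 209.7 ± 6.56 CPM (0.13, adjusted p = 0.2305). Both were called higher with upper-quartile factors or library totals alone, and Anxa1 also with the length trend removed (0.005387).

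Of 13 transcription factor genes of myeloid cells, 5 rose and 6 fell, beside 35% and 33.9% over all genes tested. Cebpd rose 6.27-fold (110.2 ± 3.52 against 15.3 ± 0.352 CPM, adjusted p = 1.634e-08), Klf4 2.76-fold (adjusted p = 1.275e-06) and Runx1 2.66-fold (8.228e-07). Hif1a, the oxygen-regulated factor, fell 3.67-fold (163 ± 10.2 against 519 ± 46.5 CPM, adjusted p = 2.964e-07). Spi1, which encodes PU.1 and was chosen after its value was seen, fell 1.40-fold (309 ± 24.9 against 377 ± 14.6 CPM, adjusted p = 0.001317), and Cebpb, chosen likewise, fell 1.58-fold (adjusted p = 9.632e-05).

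Over the 6 libraries the genes whose log2 CPM followed Clec4b1 most closely, among non-lectin genes averaging 10 CPM or more, were B3glct (Pearson r = 0.9992), Pdgfc (0.9964) and R3hcc1l (0.9946). Those following Clec7a were Srpr (0.9996), Ppa1 (0.9993) and Gmds (0.9993). With 2 groups that stand apart, such values mostly restate the difference between the groups and are given as a description.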

How the data were processed

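Libraries were non-directional SMART-seq V4 libraries from total RNA, read in pairs, per the labels' protocols. The authors deposited raw counts per Ensembl gene for 6 libraries; the tools named in the submitters' processing notes, without their roles, are Salmon 1.10.1 and STAR 2.7.10a, with the build GRCm39. The annotation release was not given in the sources used here, nor was the strand setting. Without strand, reads of antisense genes cannot be told apart, and paralogs may share reads. Symbols came from a name table (52029 of 57010 identifiers matched) and transcript lengths from an annotation of an older build.

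Counts entered edgeR 4.0.16 (R 4.3.3, limma 3.58.1) as deposited: TMM factors, filterByExpr with a minimum count of 10 (14575 genes, 99.9% of counts), robust quasi-likelihood F test of ICI against isotype, no covariates, Benjamini-Hochberg adjustment over all 14575 genes, called under 0.05. SE is the absolute log2 fold change divided by the square root of F. The procedure was tested on simulated counts in which few genes changed, equally many up and down. That setting differs from these data, in which most genes were called, so it did not test the choice of scaling. No test was made over a list. Alternatives were DESeq2 1.42.0, limma-voom, RLE or upper-quartile factors, library totals alone, no filter, a strict filter (50 counts in 3 libraries), a 1.5-fold threshold (glmTreat), a replicate block, each library left out, replicate 3 of both groups left out, and a lowess trend on transcript length removed (span 0.3); the legacy quasi-likelihood fit and a sex term (libraries with more Xist than Y-linked counts against the others) were chosen after seeing the data. The members and lists were chosen with earlier results of these data known. Named genes were the 10 lectins, the neighbouring lectins, adaptors and ligands, up to 4 called genes with the smallest p of each other pathway list, up to 3 most abundant genes of each marker list, Ptprc, Thy1 and the 3 genes most like the lectin with the largest rise and fall; 1 gene that the rule takes is not reported here, genes chosen later are said to be so, and marker genes are described mostly by list.

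The labels call the libraries biological replicates but tie them to no animals or litters, so p-values measure the spread between these 3 libraries a group. Replicates of a group differed beyond counting error (chi-square per degree of freedom 13.9 to 38.0), so none was counted as a repeat. Promoters came from RefSeq, build GRCm38.p6, of which Clec7a and Clec4a3 have 2 entries and the first was used. No protein sequence was used here.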

Additional observations from a re-analysis of the deposited data

How the results depend on the processing

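Clec7a, Clec12a, Clec4e and Clec4b1 kept direction and call in each of the 19 alternatives. Over the genes followed through the alternatives (lectins, pathway genes named and checks), 913 values kept direction and side of the threshold, 42 lost and 21 gained a call, and 11 changed sign. Clec4a3 changed sign with upper-quartile factors (0.14), library totals alone (0.16), the strict filter (0.045), without ICI replicate 3 (0.035) or isotype replicate 1 (0.0046; range with one library left out -0.13 to 0.035), with replicate 3 of both groups left out (0.046) and with the length trend removed (0.31). S100a8 changed sign to 0.040, 0.061 and 0.62 with upper-quartile factors, library totals alone and the length trend removed (called in the last), and Ptprc to -0.043 with the length trend removed; Ptprc was called higher with the first pair and with the strict filter. The causes were not tested.

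Upper-quartile factors and library totals alone each gave 2 lectins higher, 2 ligands higher, 1 neighbouring lectin higher and 3 induced genes lower. Genes of the inhibitory signalling list were 2 higher and 3 lower with the first and 1 and 3 with the second. The strict filter gave 1 neighbouring lectin higher, 3 genes of the inhibitory signalling list lower and 3 induced genes lower. Against a 1.5-fold threshold, 3110 genes were higher and 2410 lower. With it, 3 lectins (Clec7a, Clec12a and Clec4e) were lower, and pathway genes were 3 higher and 5 lower. The threshold also left 1 gene of the inhibitory signalling list, 3 induced genes and 1 ligand lower. Tyrobp, Syk, Spi1, Cebpb, Dok1, Ptpn11, Anxa5 and S100a9 were among those not called. With the length trend removed, 3 lectins were higher and 4 lower, 1 ligand higher, 1 adaptor lower and 3 induced genes lower. The activating to inhibitory ratio per kilobase was 2.78 ± 0.0539 (ICI) and 2.57 ± 0.592 (isotype), and without Clec7a it was 1.16 and 0.901.

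With 1 library left out, the lectins called ran from 5 to 7 lower, with 1 higher throughout. Genes of the inhibitory signalling list called lower ran from 3 to 4, induced genes lower from 3 to 5 and neighbouring lectins higher from 0 to 1. The replicate numbers were not shown to pair the samples (correlations of same-numbered deviations 0.034, 0.062 and 0.128). A replicate block left the lectins at 1 higher and 7 lower and made 1 neighbouring lectin, Clec1a, higher (0.64, adjusted p = 0.04778) and Csf3r lower (0.01523). The lowest count of a lectin in a library was 37, for Clec4b1, whereas Clec4a4, Clec4b2 and Clec12b are too scarce to compare.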
